A study of Homo sapiens with 33 samples.

Results

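The 39 genes described here encode the core machinery that copies chromosomal DNA, from origin licensing to the supply of deoxynucleotides. They were taken by symbol from a table of RNA-seq counts for NB4 cells, and each of the 39 symbols matched 1 of the 85160 genes in the table. NB4 is a cell line from a patient with acute promyelocytic leukaemia. In this disease the cells are blocked as promyelocytes, and all-trans retinoic acid (ATRA) releases the block. The series holds 11 groups of 3 biological replicates, numbered 2, 4 and 5 in the sample titles. Cells were left untreated (0 h), given the solvent DMSO, or given 1 µM ATRA, and both treatments were sampled at 4, 12, 24, 72 and 120 h. All groups are the same cell line without a named genetic change, and both arms were topped up on day 3 with medium that held drug, per the labels' protocols. The protocols do not say whether the 72 h collection came before or after that addition. The question asked of these genes was how far the falls under ATRA can be separated from a fall that DMSO cells also showed at 72 h.

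Replication starts at origins, where the origin recognition complex, CDC6 and CDT1 load the MCM2 to MCM7 ring in G1 phase. CDC45, the GINS complex and MCM10 turn that ring into a moving helicase in S phase. Polymerase alpha with primase starts each new strand, and polymerases delta and epsilon extend it on the PCNA clamp. FEN1 and DNA ligase 1 join the lagging-strand pieces. Most of these genes are transcribed late in G1 under E2F factors and their pocket-protein partners, and their mRNAs fall when myeloid precursors leave the cell cycle during maturation.

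Promoter windows are shown first, as a description. The genes were taken by symbol and not by sequence. Most of them are transcribed under E2F factors, however, so a high share of E2F sequences among them is not an independent result. In RefSeq promoter windows of GRCh38.p14, each from 250 bases before to 50 bases after a gene's start, an E2F word was searched on both strands as TTTCCCGC, TTTCGCGC, TTTGCCGC or TTTGGCGC. A window was found for 34 of the 39 genes (43 windows). An E2F word was present for 18 of the 34 genes (52.9%) and in 18 of the 43 windows (41.9%), against 3.31% of all 35116 windows. Member windows were richer in G and C, with a median of 65.7% against 58.7% over all windows. Of the 9599 windows between 59.8% and 70% GC, 4.96% held an E2F word. The word CCAAT was present in 58.1% of member windows and 34.6% of all windows. The words TTTGAA or TTCGAA, the cell cycle homology region of many mitotic genes, were in 4.65% and 16.4%, and in 8.17% of the windows in that GC range, where CCAAT was in 33.1%. The upstream stretches below belong to genes whose levels are given in detail in the text or that fell most. Capitals mark E2F words on either strand, which run together where they overlap, and in RRM2, which had no E2F word in its window, the CCAAT words.
GINS2 (minus strand, chr16:85688955-85689054): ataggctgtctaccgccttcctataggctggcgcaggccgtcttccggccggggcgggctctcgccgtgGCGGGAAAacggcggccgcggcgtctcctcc
MCM6 (minus strand, chr2:135876504-135876603): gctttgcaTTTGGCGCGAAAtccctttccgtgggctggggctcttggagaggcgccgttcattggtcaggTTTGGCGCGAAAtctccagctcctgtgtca
CDT1 (plus strand, chr16:88803689-88803788): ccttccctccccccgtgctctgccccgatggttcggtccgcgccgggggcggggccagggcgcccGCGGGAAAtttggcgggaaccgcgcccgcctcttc
TYMS (plus strand, chr18:657553-657652): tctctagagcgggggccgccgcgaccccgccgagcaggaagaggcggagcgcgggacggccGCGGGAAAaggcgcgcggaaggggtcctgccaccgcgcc
E2F1 (minus strand, chr20:33686386-33686485): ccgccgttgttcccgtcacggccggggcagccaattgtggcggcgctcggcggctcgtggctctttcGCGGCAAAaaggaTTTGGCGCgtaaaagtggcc
PCNA (minus strand, chr20:5126623-5126722): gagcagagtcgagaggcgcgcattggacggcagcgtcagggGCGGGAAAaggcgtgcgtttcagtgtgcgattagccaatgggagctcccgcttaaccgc
POLA2 (plus strand, chr11:65261862-65261961): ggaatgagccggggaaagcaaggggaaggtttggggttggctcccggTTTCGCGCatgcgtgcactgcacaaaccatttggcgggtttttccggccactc
RRM2 (plus strand, chr2:10122609-10122708): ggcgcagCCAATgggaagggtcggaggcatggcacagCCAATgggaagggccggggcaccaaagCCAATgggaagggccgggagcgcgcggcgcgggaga

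Library totals ran from 18341456 to 33490654 fragments, and the 39 genes took between 0.140% and 0.639% of them. All 39 were among the 22971 genes that passed the filter on low counts, the lowest count of a member in any library being 89. Levels are counts per 1000000 fragments (CPM) on TMM-scaled library sizes, given in the order of replicates 2, 4 and 5. They are compared within a gene only, since the gene models include merged exons that make lengths unreliable. A gene is said to rise, fall or be called where the adjusted p of edgeR's quasi-likelihood test was under 0.05 (Benjamini-Hochberg, over all 22971 genes). Fold changes are on the log2 scale with their standard errors. The 0, 4 and 12 h libraries were sequenced in 1 lane. From 24 h on replicate 2 was in a second lane and replicates 4 and 5 shared another, per the file headers. Scaling by total counts instead of TMM moved the median of all genes by over 0.1 in 6 comparisons, among them ATRA against DMSO at 72 h (median -0.16) and 120 h (median -0.23). Under it 8808 genes were called lower and 6358 higher at 72 h, in place of 7490 and 7383.

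The geometric mean over the 39 genes had group means between 93.2% and 104.4% of its untreated level for the first day in both arms. It fell in both arms at 72 h, and the arms then parted. Single genes moved more in the first day, among them CDC6 (-0.50) and TK1 (0.81) in ATRA against DMSO at 12 h, on the log2 scale. As a geometric mean over the 39 genes, set to 100% in untreated cells (SD 1.07, n = 3), DMSO cells stood at 97.7% ± 1.10 at 24 h, 64% ± 0.396 at 72 h and 94.8% ± 2.39 at 120 h (SD, n = 3 each). ATRA cells stood at 96.7% ± 0.673, 46.2% ± 2.47 and 33.7% ± 4.33 at the same times. At 72 h the 3 DMSO libraries lay at 64.4%, 63.6% and 64%, and the 3 ATRA libraries at 48.9%, 44.2% and 45.3%, with no overlap. At 120 h the DMSO libraries were at 96.3%, 96% and 92%, and the ATRA libraries at 36.8%, 35.4% and 28.7%, replicate 5 being the lowest. In RNA from whole cultures, fewer cells in S phase and less RNA per cycling cell cannot be told apart.

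**Figure D1:**
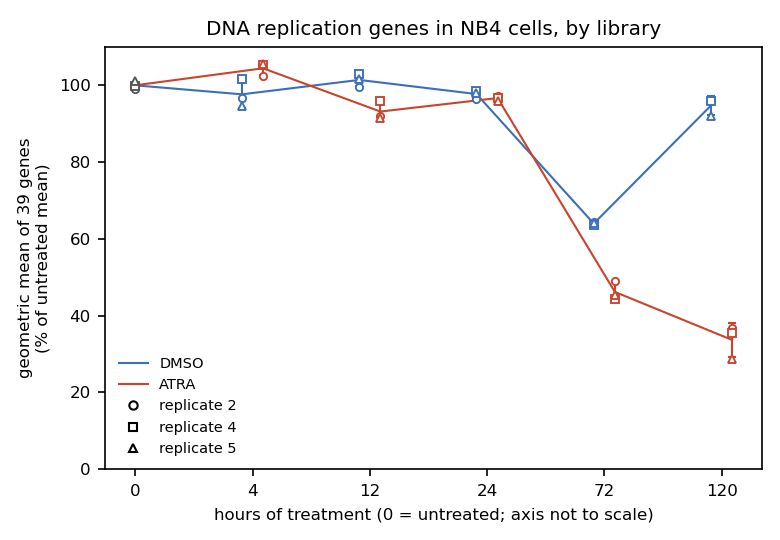
Geometric mean of the 39 replication genes in each library, as a percentage of the untreated mean, against hours of treatment (spaced evenly, not to scale); symbols are libraries by replicate number, lines join group means and bars are SD of 3 libraries. Both arms drop between 24 and 72 h, DMSO to 64% and ATRA to 46.2%, and at 120 h DMSO is at 94.8% and ATRA at 33.7%.

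Against DMSO of the same time, 30 of the 39 genes were lower and 4 higher in ATRA at 72 h, where 32.6% of all genes tested were called lower and 32.1% higher. At 120 h all 39 were lower and none higher, against 35.6% lower and 34.9% higher among all genes. The median of the members was -0.59 at 72 h and -1.43 at 120 h, beside -0.02 and -0.03 over all genes. In every one of the 39 genes the 3 ATRA libraries at 120 h lay below the 3 DMSO libraries, which held for 36.5% of all genes. At 120 h 31 members were at least 2-fold lower and 8 at least 4-fold lower (GINS2, MCM6, MCM4, CDT1, POLE2, MCM7, MCM10 and TYMS). At 72 h 3 were at least 2-fold lower (CDT1, POLE2 and GINS2). The smallest differences at 120 h were those of RPA2 (-0.42), POLA2 (-0.45) and POLD3 (-0.45).

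The fall in DMSO cells themselves was broad. Between 24 and 72 h 35 of the 39 genes fell and 2 rose in DMSO (25.5% and 26.2% of all genes were called lower and higher), with a member median of -0.63. From 72 to 120 h 34 rose and 1 fell in DMSO (22.1% and 18.7% of all genes), with a median of 0.57. DMSO means at 120 h were between 86.2% and 121.7% of those at 24 h, and 34 of the 39 genes were above 90% of it. The low DMSO values at 72 h were therefore the control against which ATRA was set at that time, and the same ATRA libraries stood lower when set against the DMSO libraries on either side. Against the mean of DMSO at 24 and 120 h, 38 genes were lower at 72 h and none higher (33.6% and 35.7% of all genes), with a median of -1.08, TK1 being the one not called (-0.16, adjusted p = 0.107). Against DMSO at 24 h alone the counts were also 38 and 0 (32.4% and 34.9% of all genes). Both of these contrasts set ATRA against DMSO of other collection times. The change that DMSO cells also showed at 72 h is therefore counted in them, and they do not give the effect of ATRA alone.

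Within the ATRA arm all 39 genes fell from 24 to 72 h (30.7% of all genes were called lower), with a median of -1.11, and 29 fell further to 120 h while 2 rose (25.4% and 25.1% of all genes). The 2 that rose were GINS3 (0.53 ± 0.11, adjusted p = 7.56e-05) and E2F1, and the 8 not called were CDC6, POLA2, POLD1, POLD3, RPA2, FEN1, RRM1 and RRM2. Without ATRA replicate 5 at 120 h, 26 fell and 5 rose over that step. The difference between the arms' changes was tested directly as the ATRA effect at 72 h minus that at 24 h, which equals the change in ATRA minus the change in DMSO. It was lower for 27 genes and higher for 2 (24.5% and 21.5% of all genes), with a median of -0.52. For the next step, from 72 to 120 h, it was lower for 36 and higher for none (21.8% and 17.5% of all genes), the others being GINS3 (-0.21 ± 0.14, adjusted p = 0.26), RPA2 (-0.02 ± 0.11, adjusted p = 0.911) and E2F1. Among the 36, the calls of POLD1 and RRM1 were lost with DESeq2 (adjusted p = 0.176 and 0.124). Both were also lost when single libraries were left out, such as replicate 5 of ATRA at 120 h (0.172 and 0.197).

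The 2 arms were then set side by side gene by gene. All 35 genes that fell in DMSO from 24 to 72 h fell in ATRA too. At 72 h 26 of these were lower in ATRA than in DMSO, 4 were higher (GINS4, POLA2, RRM2 and TK1) and 5 were not called (MCM5, PRIM2, POLD3, PCNA and FEN1). By the direct test of the 2 changes, 24 of the 35 fell more in ATRA, 2 fell less (GINS4 and RRM2) and 9 were not called. For the remaining 4 genes no fall was called in DMSO. CDT1 (0.60) and LIG1 (0.21) rose there, and RFC4 (0.09 ± 0.10, adjusted p = 0.443) and POLD1 (-0.11 ± 0.08, adjusted p = 0.275) were not called, whereas in ATRA all 4 fell, by between 0.32 and 0.85 on the log2 scale. Without replicate 2 of DMSO at 24 h POLD1 was called lower in DMSO too (-0.21, adjusted p = 0.049). The DMSO fall of RRM1 (-0.20), which is among the 35, was not called without that library (adjusted p = 0.0817). Nor was it called without replicate 4 or 5 of DMSO at 72 h (0.089 and 0.158) or under total counts or upper-quartile factors (0.062 and 0.0848). The largest falls in DMSO were those of FEN1 (-1.45), RRM2 (-1.43) and PCNA (-1.30), and these 3 were not called lower in ATRA than in DMSO at 72 h.

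**Figure D2:**
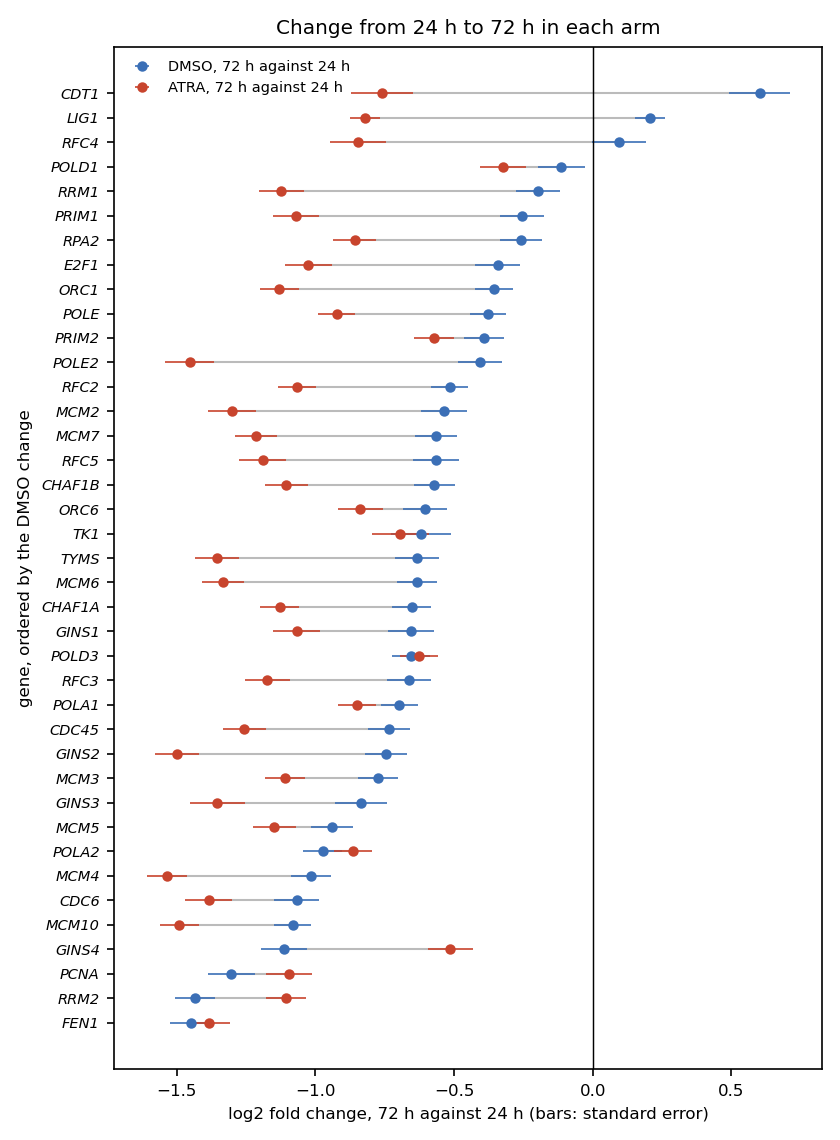
Log2 fold change from 24 to 72 h of each of the 39 genes in DMSO (blue) and ATRA (red), ordered by the DMSO change; bars are standard errors from edgeR. CDT1 and LIG1 lie above 0 in DMSO and below it in ATRA, GINS4 and RRM2 lie lower in DMSO than in ATRA, and FEN1, POLD3 and TK1 have nearly the same change in both arms.

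Of 10 origin licensing genes, 9 were lower with ATRA than with DMSO at 72 h and all 10 at 120 h. The group medians were -0.60 and -1.84. Of all genes tested, 32.6% were called lower at 72 h and 35.6% at 120 h. These shares also stand beside the counts of the other roles below, and every gene of every role was lower at 120 h. In DMSO itself 9 of the 10 licensing genes fell from 24 to 72 h. CDC6 (ENSG00000094804, chr17:40287633-40305795) helps to load the MCM ring. Over the 21 libraries of 0 to 24 h it ran from 51.9 to 91.3 (median 78.5) CPM. At 72 h it was at 37.3, 39.1 and 38.7 CPM in DMSO and 29.2, 22.7 and 26.6 in ATRA. At 120 h CDC6 was at 80.9, 75.6 and 78.4 and 25.2, 25.5 and 18.4. ATRA libraries were the lower ones at both times, with fold changes of -0.55 ± 0.09 (adjusted p = 4.83e-07) and -1.77 ± 0.09 (adjusted p = 6.66e-21). CDC6 fell in both arms from 24 h, by 1.07 in DMSO and 1.39 in ATRA on the log2 scale. The difference between these falls was -0.32 ± 0.12 (adjusted p = 0.0249). That difference was not called without replicate 4 of ATRA at 24 h (adjusted p = 0.0502), replicate 4 or 5 of DMSO at 72 h (0.0707 and 0.0677) or replicate 4 of ATRA at 72 h (0.0719), nor with DESeq2 (0.0617) or its size factors in edgeR (0.0742).

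CDT1 (ENSG00000167513, chr16:88803213-88818226), which carries the MCM ring to the origin and is held in check by geminin, was the licensing gene with the largest difference between the arms' changes from 24 to 72 h (-1.36 ± 0.16, adjusted p = 1.83e-09). It ran from 96.8 to 159.6 (median 119.5) CPM over the libraries of 0 to 24 h. At 72 h DMSO cells had 189, 177 and 182 CPM, above every earlier library, and ATRA cells 71.1, 75 and 68.6. At 120 h the values were 149, 146 and 127 and 32, 28.4 and 22.7. The ATRA effect was -1.35 ± 0.11 (adjusted p = 1.06e-13) at 72 h and -2.35 ± 0.12 (adjusted p = 2.48e-20) at 120 h. From 24 to 72 h CDT1 rose in DMSO (0.60 ± 0.11, adjusted p = 1.16e-05) and fell in ATRA (-0.76 ± 0.11, adjusted p = 1.55e-07). CDT1 shares 25.9% of its exon length with 1 or more models on its strand, of which the one with the most counts had 0.2% as many as CDT1.

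MCM2 (ENSG00000073111, chr3:127589050-127622760) is a subunit of the ring itself. It ran from 390.3 to 488 (median 448) CPM over 0 to 24 h. At 72 h MCM2 was at 301, 306 and 300.0 in DMSO and 211, 188 and 187 in ATRA. At 120 h MCM2 was at 427, 419 and 374 and 137, 128 and 95.5. The groups did not overlap at either time, with fold changes of -0.63 ± 0.08 (adjusted p = 2.45e-08) and -1.76 ± 0.09 (adjusted p = 8.59e-21). MCM5 (ENSG00000100297, chr22:35400063-35476027), another subunit, had overlapping groups at 72 h, 142, 139.9 and 136 CPM in DMSO and 143, 142 and 139 in ATRA (0.02 ± 0.08, adjusted p = 0.815). From 24 h, when it was at 250.1, 275 and 277 and 318, 319 and 305, it fell in both arms (-0.94 and -1.15). At 120 h MCM5 was at 255, 256 and 219 in DMSO and 111, 110.0 and 85.5 in ATRA (-1.25 ± 0.08, adjusted p = 1.55e-17). The other 4 ring subunits were lower at 72 h, from -0.37 in MCM3 to -0.88 in MCM6. At 120 h they ranged from -1.90 in MCM3 to -2.62 in MCM6. ORC1 and ORC6, subunits of the origin recognition complex, were lower by 0.57 and 0.26 at 72 h and by 1.21 and 1.28 at 120 h on the log2 scale.

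Of the 6 genes that activate the helicase, 5 were lower and GINS4 was higher at 72 h, and all 6 were lower at 120 h. GINS2 (ENSG00000131153, chr16:85662682-85690073), a GINS subunit, had the lowest fold change of all members at 120 h. It ran from 46.2 to 68.9 (median 60.8) CPM over 0 to 24 h. At 72 h GINS2 was at 34.7, 39.1 and 39.9 in DMSO and 20.5, 16.3 and 17.3 in ATRA. At 120 h GINS2 was at 62.1, 63.4 and 63.3 and 10.5, 9.19 and 8.05. Each ATRA library was below each DMSO library, with fold changes of -1.08 ± 0.08 (adjusted p = 1.03e-14) and -2.77 ± 0.09 (adjusted p = 4.27e-27). GINS4 (ENSG00000147536) encodes another subunit of the same complex and ran from 23.8 to 33.5 (median 27.6) CPM over 0 to 24 h. At 72 h its order was the opposite, 12.1, 13.7 and 11.9 CPM in DMSO and 18.5, 16.2 and 17.5 in ATRA (0.46 ± 0.09, adjusted p = 9.97e-06). Its fall from 24 h was larger in DMSO (-1.11) than in ATRA (-0.51), a difference that was called (0.60 ± 0.12, adjusted p = 4.04e-05). At 120 h GINS4 was at 26.4, 24.8 and 23.1 in DMSO and 11.6, 11.4 and 9.22 in ATRA (-1.20 ± 0.09, adjusted p = 1.19e-15). GINS1 and GINS3, the other subunits, were lower by 0.46 and 0.71 at 72 h and by 1.76 and 0.92 at 120 h. CDC45 and MCM10, both needed to start the helicase, were lower by 1.83 and 2.19 at 120 h.

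The 8 polymerase and primase genes differed among themselves, with 5 lower, 1 higher and 2 not called at 72 h and all 8 lower at 120 h. POLE2 (ENSG00000100479, chr14:49643433-49688422), the second subunit of polymerase epsilon, ran from 20.1 to 29.1 (median 25) CPM over 0 to 24 h. At 72 h POLE2 was at 18.1, 19.2 and 19.4 in DMSO and 8.96, 8.98 and 8.52 in ATRA. At 120 h POLE2 was at 22.9, 22.5 and 21.9 and 5.29, 4.18 and 4.17. ATRA libraries were under the lowest DMSO library at both times, with fold changes of -1.10 ± 0.09 (adjusted p = 5.69e-14) and -2.31 ± 0.10 (adjusted p = 6.56e-23). POLA2 (ENSG00000014138, chr11:65261762-65310335), the second subunit of polymerase alpha, stood at the other end. It ran from 70.5 to 97.6 (median 83.2) CPM over 0 to 24 h. At 72 h POLA2 was at 40.3, 39.9 and 39.5 in DMSO and 52.5, 48 and 58.1 in ATRA, the ATRA libraries being the higher ones (0.41 ± 0.07, adjusted p = 4.45e-06). POLA2 was already higher with ATRA at 24 h, when DMSO cells had 72.9, 78.6 and 83.2 and ATRA cells 97.6, 97 and 94.2 (0.30 ± 0.07, adjusted p = 0.000571). Its falls from 24 to 72 h were -0.97 in DMSO and -0.86 in ATRA, a difference that was not called (0.11 ± 0.10, adjusted p = 0.393). At 120 h POLA2 was at 73.6, 71 and 67.4 and 55, 55.2 and 45.4 (-0.45 ± 0.07, adjusted p = 4.56e-07), and in ATRA it did not change by the test from 72 h (-0.03 ± 0.07, adjusted p = 0.761).

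The catalytic subunits of the 3 replicative polymerases had unequal changes at 120 h, -1.61 in POLA1, -1.31 in POLE and -0.49 in POLD1. The call of POLD1 at 72 h (-0.20 ± 0.08, adjusted p = 0.0388) was lost without any 1 of 5 of the 6 libraries, with adjusted p between 0.0547 and 0.0854, and with DESeq2 size factors (0.0712). POLD1 shares 68.6% of its exon length with 1 or more models on its strand. The one with the most counts, AC020909.1, had 67.1% as many as POLD1, so the level of POLD1 is uncertain. POLD3, a subunit of polymerase delta, was not called at 72 h (0.13 ± 0.07, adjusted p = 0.113) but passed without replicate 5 of DMSO (0.20, adjusted p = 0.02) or replicate 4 of ATRA (0.18, adjusted p = 0.0291) at that time. The primase subunits differed at 72 h, PRIM1 at -0.86 ± 0.08 (adjusted p = 1.1e-11) and PRIM2 at -0.13 ± 0.08 (adjusted p = 0.144). PRIM2 was called lower at 72 h under total counts (-0.27, adjusted p = 0.00174) and upper-quartile factors (-0.18, adjusted p = 0.0221). Both were lower at 120 h (-1.46 and -0.66). PRIM1 shares 3.5% of its exon length with 1 or more models on its strand. The one with the most counts, NACA, had 846.6% as many as PRIM1, so part of the counts of PRIM1 may be shared.

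Genes of the clamp, its loader, single-strand binding and Okazaki fragment joining were lower in 6 of 8 cases at 72 h, with PCNA and FEN1 not called, and in 8 of 8 at 120 h. PCNA (ENSG00000132646, chr20:5114952-5126626), the sliding clamp, ran from 259 to 355 (median 315) CPM over 0 to 24 h. At 72 h it was at 139.7, 119 and 126 in DMSO and 153, 133 and 142 in ATRA, with overlapping groups (0.15 ± 0.08, adjusted p = 0.11). At 120 h PCNA was at 303, 301 and 281 and 135, 130.1 and 95.1 (-1.30 ± 0.09, adjusted p = 7.14e-17). Its falls from 24 to 72 h were -1.30 in DMSO and -1.10 in ATRA, a difference of 0.21 ± 0.12 (adjusted p = 0.153). With only the compared groups in the fit, PCNA was called higher in ATRA at 72 h (0.18, adjusted p = 0.028). LIG1 (ENSG00000105486, chr19:48111988-48170603), the ligase that seals Okazaki fragments, had the opposite course in DMSO. It ran from 222 to 265 (median 236) CPM over 0 to 24 h. At 72 h LIG1 was at 257, 262 and 257 in DMSO and 137, 133 and 124 in ATRA (-0.98 ± 0.05, adjusted p = 9.45e-19). LIG1 rose in DMSO from 24 to 72 h (0.21 ± 0.05, adjusted p = 0.0013; 0.0525 in replicates 4 and 5 alone) and fell in ATRA (-0.82 ± 0.05, adjusted p = 2.37e-16). At 120 h LIG1 was at 242, 234 and 233 and 79.8, 75 and 69.8 (-1.66 ± 0.06, adjusted p = 3.73e-26).

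FEN1, the nuclease that trims the flaps LIG1 then seals, fell by 1.45 in DMSO and 1.38 in ATRA from 24 to 72 h on the log2 scale, and the arms differed at 120 h (-1.03 ± 0.08, adjusted p = 1.85e-15). FEN1 shares 0.7% of its exon length with 1 or more models on its strand. The one with the most counts, FADS2, had 441.2% as many as FEN1, so part of the counts of FEN1 may be shared. The 4 clamp loader genes measured here, RFC2 to RFC5, were lower by between 0.43 (RFC5) and 0.88 (RFC4) at 72 h and by between 1.42 (RFC2) and 1.86 (RFC3) at 120 h. RPA2, a subunit of the single-strand binding protein, was lower by 0.40 at 72 h and 0.42 at 120 h, and its ATRA effect was called lower at 72 h than at 24 h (-0.60 ± 0.11, adjusted p = 1.45e-05).

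The 4 genes of deoxynucleotide supply split at 72 h, RRM1 and TYMS being lower with ATRA and RRM2 and TK1 higher, and all 4 were lower at 120 h. RRM1 (ENSG00000167325, chr11:4082216-4180720) and RRM2 (ENSG00000171848, chr2:10120435-10135051) encode the large and small subunits of ribonucleotide reductase. RRM2 ran from 132 to 214 (median 158) CPM over 0 to 24 h, the highest values being those of 12 h, when DMSO cells had 199, 203 and 214 and ATRA cells 203, 202 and 195. At 72 h RRM2 was at 61.6, 59.1 and 54.9 in DMSO and 82.7, 75.3 and 80.2 in ATRA (0.44 ± 0.07, adjusted p = 1.94e-06), every ATRA library being above every DMSO library. At 120 h RRM2 was at 142, 153 and 143 and 94.3, 94.3 and 70.8 (-0.75 ± 0.07, adjusted p = 4.34e-12). Its fall from 24 to 72 h was larger in DMSO (-1.43) than in ATRA (-1.11), a difference of 0.33 ± 0.10 (adjusted p = 0.00778) that was not called with total-count scaling (adjusted p = 0.0585) or in replicates 4 and 5 alone (0.0867). From 72 to 120 h RRM2 rose in DMSO (1.32) and was not called in ATRA (0.12 ± 0.07, adjusted p = 0.166). Without ATRA replicate 5 at 120 h it rose there too (0.26, adjusted p = 0.000817). RRM1 ran from 149 to 196 (median 166) CPM over 0 to 24 h. It had the reverse order at 72 h, 142, 139 and 132 in DMSO and 77.6, 70.3 and 66.5 in ATRA (-0.94 ± 0.08, adjusted p = 2.54e-13). At 120 h RRM1 was at 161, 162 and 155 and 77.3, 71.4 and 53.5 (-1.24 ± 0.08, adjusted p = 5.56e-17). RRM1 shares 20.3% of its exon length with 1 or more models on its strand, of which STIM1 had the most counts, so part of its counts may be shared.

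TYMS (ENSG00000176890, chr18:657604-688738), thymidylate synthase, makes thymidylate anew. It ran from 89.97 to 121 (median 108) CPM over 0 to 24 h. At 72 h TYMS was at 77.8, 66.2 and 68.1 in DMSO and 39.8, 36.3 and 36.8 in ATRA. At 120 h TYMS was at 101, 101 and 100.1 and 24.7, 24.5 and 17.8. The groups did not overlap, with fold changes of -0.91 ± 0.08 (adjusted p = 9.53e-13) and -2.17 ± 0.09 (adjusted p = 4.42e-24). TK1 (ENSG00000167900, chr17:78169747-78187233), thymidine kinase 1, salvages thymidine for the same product and was higher with ATRA at every time up to 72 h. It was at 35.6, 39.1 and 34.5 CPM in DMSO and 60.1, 68.7 and 62.1 in ATRA at 12 h (0.81 ± 0.10, adjusted p = 2.26e-08). At 24 h TK1 was at 31.8, 35.4 and 36.8 and 58.1, 56.2 and 51.7 (0.67 ± 0.10, adjusted p = 1.31e-06). At 72 h it was at 24, 22.2 and 21.8 and 32.1, 35.3 and 35.1 (0.60 ± 0.11, adjusted p = 7.37e-06). At 120 h TK1 was at 44.3, 44.5 and 37.8 and 25.5, 25.7 and 16.3 (-0.91 ± 0.11, adjusted p = 1.16e-09). Over 0 to 24 h it ran from 28.4 to 68.7 (median 39.1) CPM. Its falls from 24 to 72 h were -0.62 in DMSO and -0.69 in ATRA, a difference that was not called (-0.07 ± 0.15, adjusted p = 0.724).

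Both chromatin assembly genes, subunits of the factor that places histones behind the fork, were lower at 72 and 120 h. CHAF1B (ENSG00000159259, chr21:36379906-36427653) ran from 26.6 to 40.9 (median 33.2) CPM over 0 to 24 h. At 72 h CHAF1B was at 22.1, 24 and 20.2 in DMSO and 14.6, 12.9 and 12.2 in ATRA. At 120 h CHAF1B was at 33.9, 30.2 and 31 and 8.66, 8.42 and 7.30. Its fold changes were -0.74 ± 0.08 (adjusted p = 1.07e-10) and -1.97 ± 0.08 (adjusted p = 5.89e-23). CHAF1B shares 2.9% of its exon length with 1 or more models on its strand. The one with the most counts, MORC3, had 149.5% as many as CHAF1B, so part of the counts of CHAF1B may be shared. CHAF1A (ENSG00000167670, chr19:4402641-4445018) ran from 74.7 to 96.8 (median 84.6) CPM. At 72 h CHAF1A was at 53, 49 and 53 in DMSO and 40.7, 40.1 and 34.6 in ATRA. At 120 h CHAF1A was at 79.1, 78.5 and 75.5 and 30.6, 33.1 and 27.1. Its fold changes were -0.43 ± 0.07 (adjusted p = 1.94e-06) and -1.36 ± 0.07 (adjusted p = 9.63e-20). Neither gene's groups overlapped at these times.

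E2F1 (ENSG00000101412, chr20:33675215-33686404), the activator that drives many replication genes at the start of S phase, is the only transcription factor among the 39. It ran from 53 to 85 (median 69.8) CPM over 0 to 24 h. At 72 h E2F1 was at 53, 53.8 and 57.4 in DMSO and 30.9, 27.7 and 26.9 in ATRA. At 120 h E2F1 was at 70.9, 75.9 and 70.9 and 35.9, 34.8 and 28.2. The ATRA effect was -0.94 ± 0.09 (adjusted p = 1.32e-12) at 72 h and -1.14 ± 0.08 (adjusted p = 2.96e-15) at 120 h. The difference between these 2 effects was not called (-0.20 ± 0.12, adjusted p = 0.202). Within ATRA E2F1 rose from 72 to 120 h (0.21 ± 0.09, adjusted p = 0.0418). That call was lost without replicate 4 or 5 of ATRA at 72 h (adjusted p = 0.114 and 0.157) and without replicate 2 or 4 at 120 h (0.253 and 0.163). It was also lost under total-count scaling (0.411), upper-quartile factors (0.156) and limma-voom (0.0631). The same held with every gene of at least 1 count (0.161), the compared groups alone (0.0904) and replicates 4 and 5 alone (0.11).

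**Figure D3:**
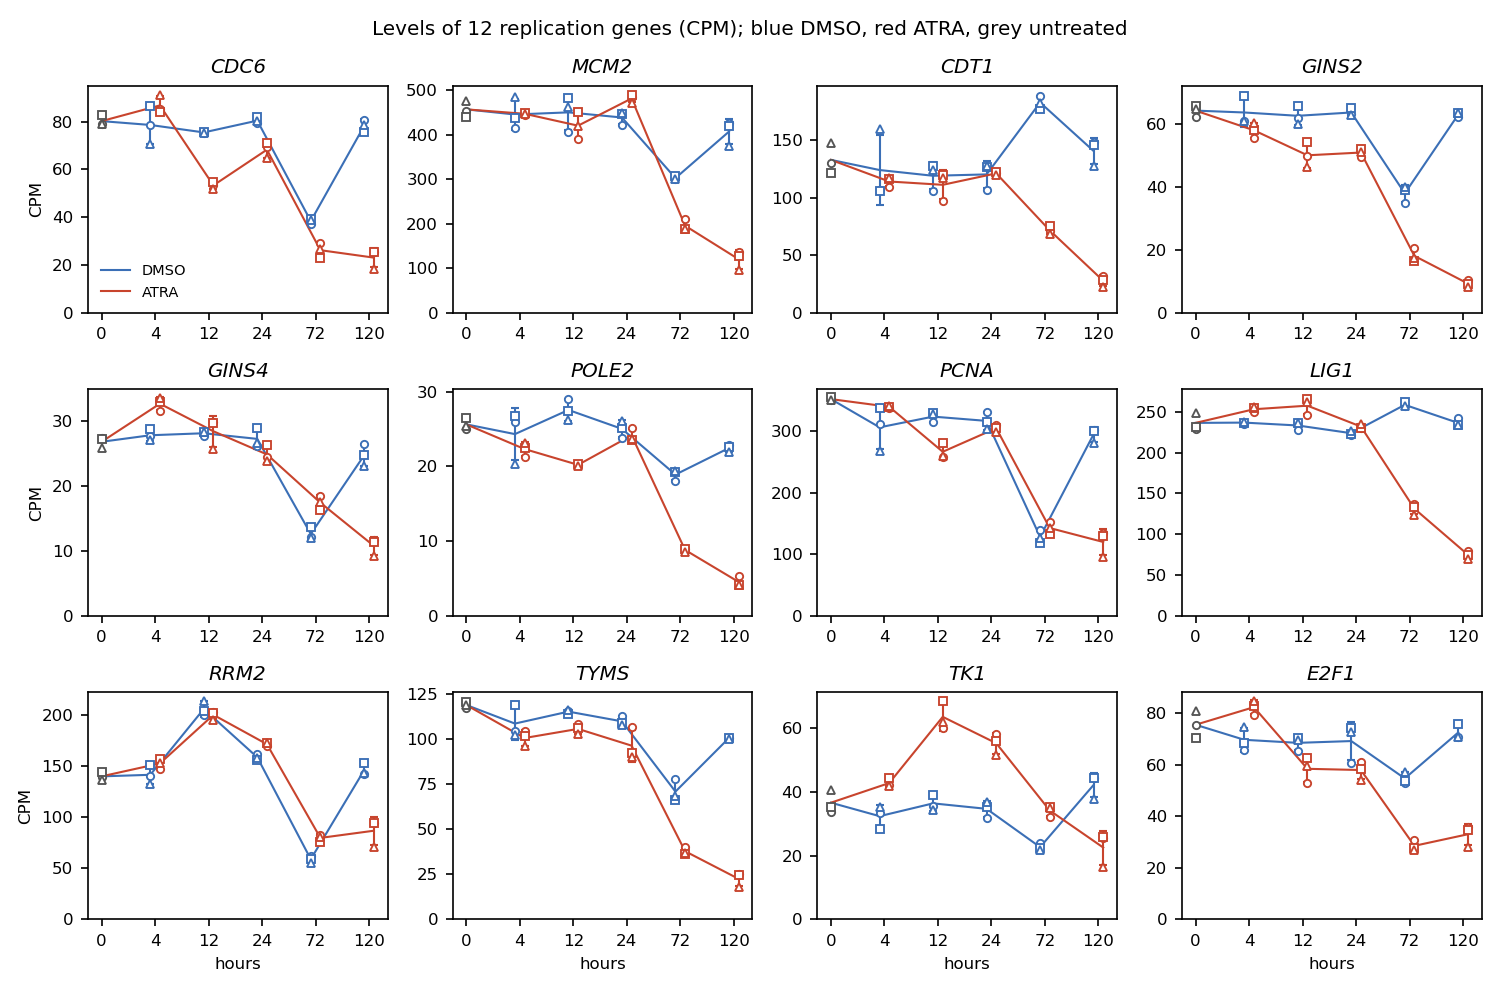
CPM of 12 of the 39 genes in every library against hours (spaced evenly), DMSO in blue, ATRA in red and untreated in grey; symbols are libraries, lines join group means and bars are SD of 3 libraries. At 72 h GINS4, RRM2 and TK1 are higher in ATRA, CDT1 and LIG1 are above their 24 h level in DMSO, and at 120 h every gene is lower in ATRA.

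Differences in the first day were small and mixed. At 4 h 9 members were higher with ATRA and none lower (12.3% and 12.4% of all genes). The largest were POLD3 (0.42 ± 0.07, adjusted p = 3.6e-06) and TK1 (0.40 ± 0.10, adjusted p = 0.0028). That count of 9 was 4 without DMSO replicate 2 and 5 without ATRA replicate 5, and 14 under total-count scaling. At 12 h 18 were lower and 2 higher (18.7% and 20% of all genes), and under total-count scaling 11 were lower and 5 higher. The 2 higher genes were TK1 and LIG1 (0.14 ± 0.05, adjusted p = 0.0324), LIG1 being lost without any 1 of 5 of the 6 libraries (adjusted p between 0.0735 and 0.157). The lowest was CDC6, with 75.5, 75.6 and 75.4 CPM in DMSO and 53.4, 54.6 and 51.9 in ATRA (-0.50 ± 0.08, adjusted p = 2.66e-06), followed by POLE2 (-0.45 ± 0.08, adjusted p = 1.34e-05) and MCM10 (-0.44 ± 0.06, adjusted p = 5.94e-07). At 24 h 7 were lower and 5 higher (15.8% and 17.4% of all genes), which with DESeq2 size factors were 8 and 2. The lowest was GINS2 (-0.32 ± 0.08, adjusted p = 0.00069) and the highest TK1. The 5 higher were 2 without DMSO replicate 2 or ATRA replicate 4 and 3 without ATRA replicate 2 or 5, and the 7 lower were 4 without DMSO replicate 4. The change of the ATRA effect was lower for 11 members and higher for none from 4 to 12 h (5.89% and 8.13% of all genes). From 12 to 24 h it was higher for POLE2 alone (0.39 ± 0.11, adjusted p = 0.0222) and lower for none (2.5% and 4.4% of all genes). The call of POLE2 was lost without DMSO replicate 2 or ATRA replicate 5 at 12 h (adjusted p = 0.0644 and 0.0507), or replicate 2 of either arm at 24 h (0.0571 for DMSO and 0.0679 for ATRA).

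In DMSO cells 3 members were lower and 2 higher at 4 h than in untreated cells (15.7% of all genes in either direction), and 0 lower and 4 higher at 12 h (11.5% and 11.2%). Under total-count scaling the 4 h counts were 0 and 7, and with DESeq2 size factors 6 and 2. The higher count at 4 h was 5 without DMSO replicate 5 and 1 without untreated replicate 4 or 5 or DMSO replicate 2 or 4. The lower count was 5 without DMSO replicate 4 and 1 without untreated replicate 5. At 12 h the higher count was 2 without untreated replicate 4 or DMSO replicate 4. RRM2 was the highest at 12 h, at 199, 203 and 214 CPM against 139, 143 and 136 in untreated cells (0.56 ± 0.07, adjusted p = 1.28e-07).

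**Figure D4:**
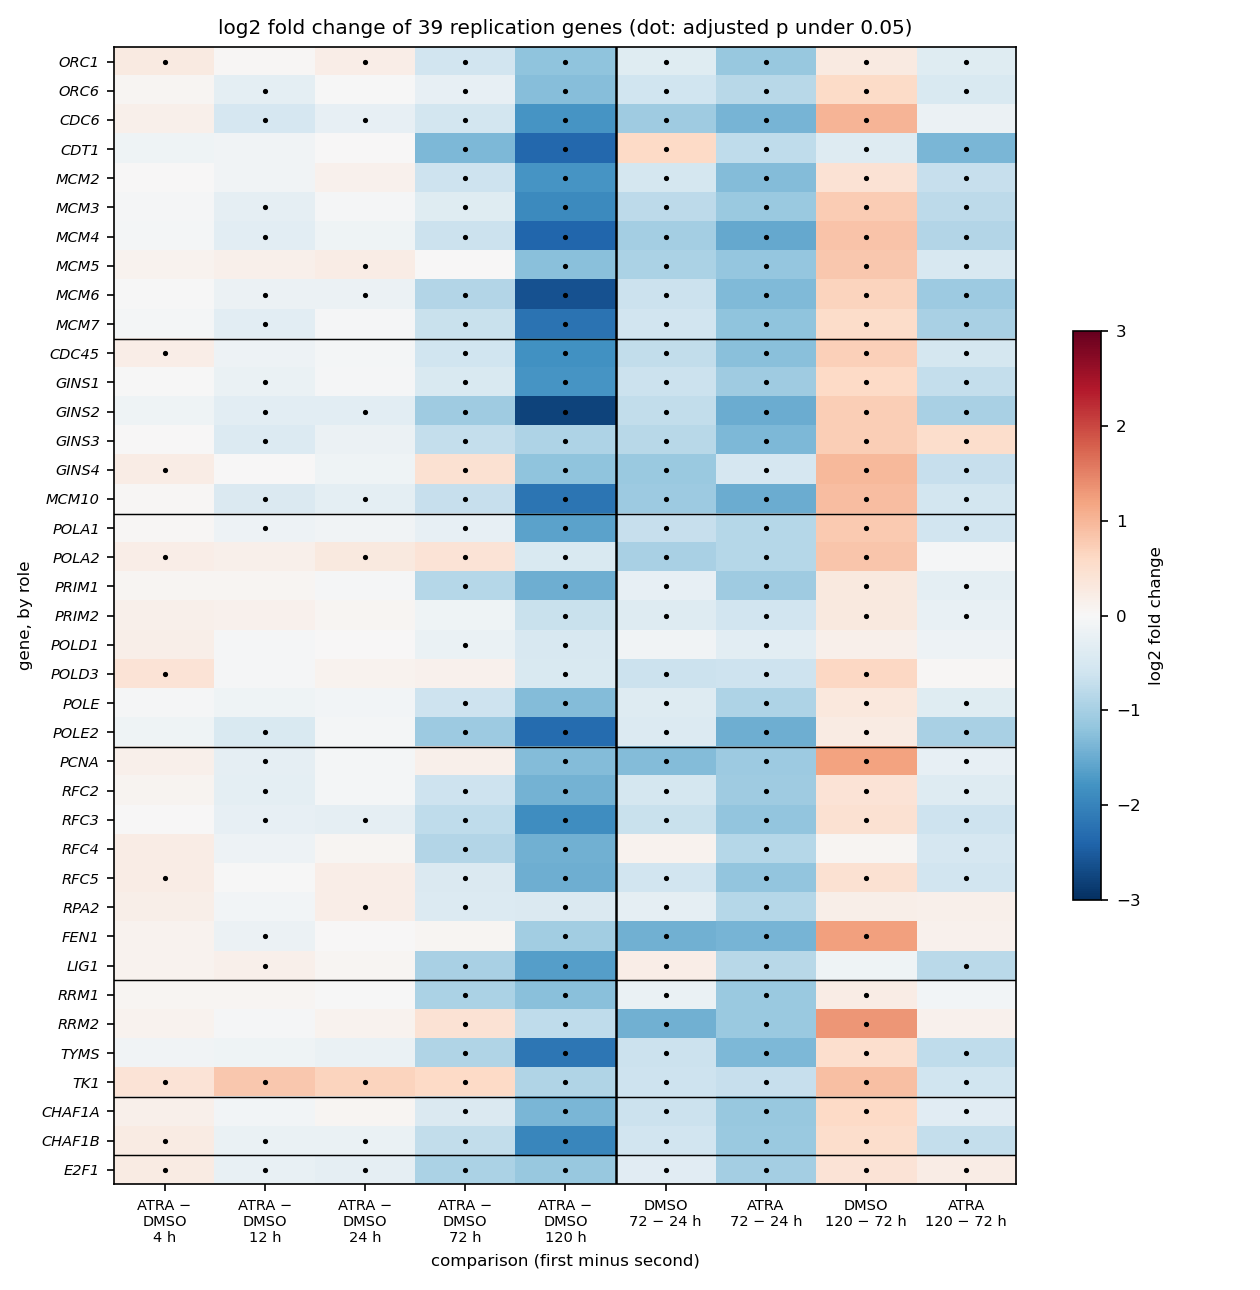
Log2 fold changes of the 39 genes, grouped by role from origin licensing at the top to E2F1 at the bottom, in ATRA against DMSO at 5 times and in the changes within each arm from 24 to 72 h and from 72 to 120 h; red is higher, blue lower, and dots mark adjusted p under 0.05 by edgeR. The 120 h column is blue for all 39 genes, and the DMSO change from 72 to 120 h is called higher for 34.

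Further genes of the pathway were counted from 2 lists that do not contain the 39. Of 45 further replication genes tested 34 were lower and 6 higher with ATRA at 72 h, and 36 and 3 at 120 h, with medians of -0.46 and -0.99. Of all genes tested 32.6% were lower and 32.1% higher at 72 h, and 35.6% and 34.9% at 120 h. The 4 with the smallest p at 72 h included 2 that were higher in ATRA than in DMSO. SAMHD1, which breaks down deoxynucleotides, went from 28.8, 24.8 and 22.2 CPM in DMSO to 540.5, 495 and 585 in ATRA (4.42 ± 0.08, adjusted p = 1.52e-34). At 120 h SAMHD1 was at 49.6, 51.9 and 46.5 and 846, 857 and 746 (4.05 ± 0.08, adjusted p = 4.31e-34). POLD4, the small subunit of polymerase delta, was at 9.58, 8.63 and 9.25 and 32, 34.5 and 30.6 at 72 h (1.82 ± 0.10, adjusted p = 1.16e-18). POLD2, another subunit of the same polymerase, moved the other way, from 253, 251 and 254 to 108, 98.3 and 93 (-1.34 ± 0.08, adjusted p = 1.45e-18). So did RNASEH2A, which removes RNA from DNA, from 51.9, 48.4 and 47 to 21.8, 23.2 and 21.7 (-1.14 ± 0.09, adjusted p = 1.95e-14). POLD4 shares 9.3% of its exon length with 1 or more models on its strand. The one with the most counts, AP003419.1, had 102.2% as many as POLD4, so part of the counts of POLD4 may be shared.

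Of 16 genes of the E2F, DP and pocket protein families and their partners 8 were lower and 3 higher with ATRA at both 72 and 120 h, with medians of -0.21 and -0.13, beside those same shares of all genes. E2F5, a repressor E2F, was at 11, 11.4 and 10.4 CPM in DMSO and 2.74, 2.30 and 3.05 in ATRA at 72 h (-2.02 ± 0.13, adjusted p = 3.31e-17). TFDP2, a DNA-binding partner of E2F proteins, was at 22.7, 22.5 and 20.7 and 8.36, 6.83 and 6.57 (-1.60 ± 0.12, adjusted p = 8.35e-15). RB1, the retinoblastoma protein that holds E2F in check, was the highest of the list at 73.6, 62.6 and 61.5 and 111, 103 and 113 (0.73 ± 0.08, adjusted p = 5.75e-10). E2F2, an activator like E2F1, was at 27.5, 27.9 and 27.1 and 15.4, 12.8 and 13.3 at 72 h (-0.99 ± 0.11, adjusted p = 6.08e-10). At 120 h E2F2 was at 38.9, 37.7 and 32.8 and 29.6, 32.5 and 21.3 (-0.39 ± 0.11, adjusted p = 0.00132).

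The windows with and without an E2F word were set beside these changes as a description. The 18 members with the word had a median ATRA effect of -0.69 at 72 h and -1.76 at 120 h, and the 16 members with a window but no word -0.50 and -1.32. Their medians from 24 to 72 h were -0.65 and -0.57 in DMSO and -1.14 and -1.11 in ATRA. RRM2 and FEN1, 2 of the 3 genes with the largest falls in DMSO, had no such word in their window, and PCNA had 1. Only the exact words were searched, so a window without one may still hold another form of E2F site. Whether E2F sites had a part in these changes was not tested.

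Markers of myeloid identity differed between the groups at early and late times. All 9 promyelocyte markers had counts, and their summed level was 13630 to 14710 CPM in untreated cells. It was 10020 to 10910 in DMSO at 4 h, and 9982 to 11330 in DMSO and 8380 to 9427 in ATRA at 12 h. At 24 h the sum was higher in ATRA, 13530 to 14280, than in DMSO, 11360 to 12480. It was 10720 to 11210 in DMSO and 8232 to 9291 in ATRA at 72 h, and 10920 to 13210 and 1192 to 1560 at 120 h. MPO, the main azurophil granule enzyme, made most of it in untreated cells, whereas KIT had 14 counts and ELANE 160 in all libraries together. Members of that list went different ways: from DMSO to ATRA at 72 h the mean of MPO was 8877 and 5855 CPM, that of PRTN3 463.8 and 1190, and that of SRGN 1197 and 1617. The means of CD33 were 42.7 and 42.2 at 120 h. The 10 monocyte and macrophage markers summed to 29.6 to 31.3 CPM in DMSO and 69.95 to 75.4 in ATRA at 12 h. They summed to 31.3 to 36.1 CPM in DMSO and 325 to 377 in ATRA at 72 h. At 120 h they summed to 28.9 to 32 and 599.5 to 699.7, with MRC1 at 5 counts and C1QB at 1 count in all. The 8 lymphocyte markers summed to 221 to 237 CPM in ATRA at 72 h and 337 to 398 at 120 h, most of it NKG7, with CD3E at 12 counts and MS4A1 at 7. The 8 erythroid and megakaryocyte markers never exceeded 5.15 CPM in sum, with ALAS2 and PF4 at 0. The 8 epithelial and fibroblast markers summed to between 14.2 and 37.8. The share of counts in mitochondrial and small RNA genes was 10.3% to 11% in DMSO and 10.2% to 11.9% in ATRA at 72 h, beside 8.27% to 9.28% in the 24 h libraries of both arms. At 120 h it was 9.02% to 9.87% in DMSO and 8.47%, 9.28% and 10.9% in ATRA, replicate 5 being the highest as it was the lowest in the replication genes. The part of these changes in the levels of the replication genes was not tested.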

How the data were processed

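Stranded total RNA libraries of NB4 cells were sequenced as 150 bp paired ends, per the labels' protocols. The deposited values are raw counts of fragments per gene, made by the authors with featureCounts 1.5.1 in strand-specific mode on merged Ensembl and FANTOM CAT models of GRCh38, per the file headers. A fragment over more than 1 gene added 1 to the count of each. The submitters' processing notes name the tools Trimmomatic 0.36, STAR 2.5.2b and Subread 1.5.1. Symbols came from GENCODE 29, in which 57447 of 58970 Ensembl identifiers had a match. Libraries held 18341456 to 33490654 fragments.

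Counts were tested in R 4.3.3 with edgeR 4.0.16: filterByExpr, TMM factors from 0.827 to 1.11, and 1 quasi-likelihood fit with a mean per group that pooled the 33 libraries for the spread (common biological coefficient of variation 0.0769). P-values were adjusted by Benjamini-Hochberg over the 22971 genes of a comparison, with a threshold of 0.05. Standard errors are those implied by the F statistic.

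Members, lists and tests were chosen with earlier results of these data known. Values for every library at 72 and 120 h are given for CDC6, MCM2, PCNA, RRM2, TYMS and E2F1 and for the lowest and highest member of each role at 72 h, with the range over earlier libraries; of each further list the 4 genes of smallest p at 72 h are named. The titles number the replicates 2, 4 and 5, and the numbers were not used to pair libraries. Alternatives were DESeq2 1.42.0, limma-voom (limma 3.58.1), other scalings and filters, leaving out mitochondrial and small RNA genes, a replicate block, fits of the compared groups alone, replicates 4 and 5 alone, other controls at 72 h and leaving out each library. Promoter windows came from RefSeq tables on GRCh38.p14.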

Additional observations from a re-analysis of the deposited data

Results flagged for a closer look

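The results below were singled out because the ATRA effect was tested to differ between consecutive times, by the interaction in edgeR's quasi-likelihood fit. From 4 to 12 h the effect was lower for 11 of the 39 members (5.89% of all genes). From 12 to 24 h it was higher for 1 (2.5% of all genes), a count near the share of all genes. From 24 to 72 h it was lower for 27 and higher for 2 (24.5% and 21.5% of all genes). From 72 to 120 h it was lower for 36 (21.8% of all genes).

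Single genes were picked out where ATRA against DMSO was called in opposite directions at the 2 times. Between 4 and 12 h these were CHAF1B, whose effect moved by -0.44 from 0.24 to -0.21, and E2F1, which moved by -0.47 from 0.24 to -0.23. The 12 h calls were lost without ATRA replicate 5 for CHAF1B (adjusted p = 0.108) and without DMSO replicate 4 or ATRA replicate 2 for E2F1 (0.0571 and 0.139). The 4 h calls were lost without DMSO replicate 2 for both (0.0666 for CHAF1B and 0.105 for E2F1) and without ATRA replicate 5 for E2F1 (0.0677).

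Between 24 and 72 h these were ORC1, which moved by -0.77 from 0.20 to -0.57, and RPA2, which moved by -0.60 from 0.20 to -0.40. The 24 h call of ORC1 was lost without DMSO replicate 2 or ATRA replicate 4 or 5 (adjusted p = 0.0951, 0.0746 and 0.0683). That of RPA2 was lost without any 1 of the 6 libraries (adjusted p between 0.0692 and 0.171).

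Between 72 and 120 h these were GINS4, which moved by -1.67 from 0.46 to -1.20, POLA2 by -0.85 from 0.41 to -0.45, RRM2 by -1.19 from 0.44 to -0.75, and TK1 by -1.50 from 0.60 to -0.91. For these 4 genes the calls at both times held with each library left out in turn, and all 4 were among the genes that rose in DMSO from 72 to 120 h.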

How the results depend on the processing

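Over 10491 recomputed values of single members, 10084 kept their side of the threshold, 244 lost and 147 gained the call in their direction, and 16 that were called in at least 1 of the settings compared changed sign. Of the 10084, 275 were uncalled in both settings and differed in sign, 243 of these in comparisons up to 24 h. At 72 h these were MCM5 (-0.12), POLD3 (-0.015) and FEN1 (-0.071) under total counts, and MCM5 under upper-quartile factors (-0.035) and without ATRA replicate 4 (-0.013). The 16 arose from the control used at 72 h. With the mean of DMSO at 24 and 120 h as control the values were -0.85 for MCM5, -0.58 for GINS4, -0.49 for POLA2, -0.51 for POLD3, -1.10 for PCNA, -1.27 for FEN1, -0.94 for RRM2 and -0.16 for TK1. With DMSO at 24 h alone they were -0.92, -0.65, -0.57, -0.53, -1.15, -1.38, -0.99 and -0.025 in the same order. Under both of these controls 0 members were higher at 72 h. DMSO at 72 h is left out there, so the values include the change that DMSO cells also showed at 72 h.

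Counts that moved by over 1.5 times follow, and the cause was not tested. ATRA against DMSO at 4 h gave 3 higher with every gene of at least 1 count and 14 with total counts. At 12 h it gave 1 higher with DESeq2 (RLE) factors or every gene, and 11 lower and 5 higher with total counts. At 24 h it gave 2 higher with RLE factors, 3 with every gene, 8 with the compared groups alone, and 4 lower and 1 higher in replicates 4 and 5. DMSO at 4 h against untreated gave 6 lower with DESeq2 or RLE factors, 5 with limma-voom, 1 (and 1 higher) with every gene, 0 with the compared groups alone, and 0 (and 7 higher) with total counts. In that comparison 4 were higher without mitochondrial and small RNA genes or with upper-quartile factors. DMSO from 72 to 120 h gave 2 lower under DESeq2, RLE, limma-voom, total counts, upper-quartile factors, the compared groups alone and without mitochondrial and small RNA genes, LIG1 joining CDT1 in each. DMSO from 24 to 72 h gave 1 higher in replicates 4 and 5. ATRA from 72 to 120 h gave 1 higher with every gene, limma-voom, total counts, upper-quartile factors, the compared groups alone and replicates 4 and 5. The effect from 4 to 12 h gave 1 higher with DESeq2, every gene, total counts, upper-quartile factors, the compared groups alone and without mitochondrial and small RNA genes. From 12 to 24 h it gave 0 higher with every gene or total counts and 8 with the compared groups alone. From 24 to 72 h it gave 1 higher with total counts or in replicates 4 and 5.

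Same-numbered libraries did not correlate over 0.1 in all 3 pairs of any of the 11 comparisons, the nearest being 12 h (0.185, 0.186 and 0.037). In 3 of the 11 (12 h, 120 h and DMSO at 4 h) every number correlated best with its own, a hint from the data and not the design. With the replicate block the late counts were 30 lower and 4 higher at 72 h, 39 lower at 120 h, 35 lower and 2 higher in DMSO from 24 to 72 h, and 2 lower and 35 higher in DMSO from 72 to 120 h. Of early counts it gave 5 lower in DMSO at 4 h and 1 higher for the effect from 4 to 12 h.

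Leaving out each library in turn gave 29 to 30 lower and 4 to 5 higher at 72 h, 39 lower at 120 h, 34 to 35 lower in DMSO from 24 to 72 h, 1 to 2 lower and 32 to 34 higher in DMSO from 72 to 120 h, and 26 to 31 lower and 1 to 5 higher in ATRA from 72 to 120 h. For early times it gave 0 to 1 lower and 4 to 12 higher at 4 h, 13 to 16 lower and 1 to 2 higher at 12 h, 4 to 7 lower and 2 to 4 higher at 24 h, 1 to 5 lower and 1 to 5 higher in DMSO at 4 h, and 2 to 4 higher in DMSO at 12 h. The effect from 4 to 12 h had 8 to 16 lower and 0 to 1 higher, and that from 12 to 24 h 0 to 1 higher. That from 24 to 72 h had 26 to 27 lower and 2 higher, and that from 72 to 120 h 34 to 36 lower. Many of the early calls with differences of under 0.3 on the log2 scale were lost when 1 library was left out. The smallest difference that 3 libraries a group can detect was not measured.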
